A study of Mus musculus with 2 samples.

Results

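The cytosolic ribosomal protein genes were compared between Glis2 mutant and wild type mouse kidney. Members were the array probes that are not controls and whose gene name is Rpl or Rps followed by a digit, or Rplp0, Rplp1, Rplp2 or Rpsa, without the Rps6k kinases. The rule found 75 probes for 73 genes, among 20868 distinct probes, and the names Rplp2 and Rpsa did not occur. All 75 member spots were well above background in both dyes on both arrays, and all 73 genes entered the test of 18358 genes. No member was chosen by its own measured value, but the group was chosen with earlier results of these data known.

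The samples were 2 two-colour Agilent arrays of mouse kidney, each with both genotypes. The mutant RNA carried Cy3 on replicate 1 and Cy5 on replicate 2, so the pair is a dye swap. The array titles call the genotypes Glis2 KO and Glis2 WT, and Glis2 encodes a zinc finger transcription factor whose loss causes a fibrotic, cystic kidney disease. The series text speaks of pools of 3 kidneys, of postnatal days 25 and 60 and of 2 independent experiments, but no label ties either array to an age or an experiment. The strain, the allele and the sex are not given in the sources used here. The 2 arrays may thus be technical repeats, and p-values measure only the spread between them. In limma's main fit that spread comes mostly from all genes together, with 6.58 prior and 1 residual degrees of freedom.

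The ribosome has a small subunit, which reads the mRNA, and a large subunit, which joins the amino acids, and each holds one copy of most of its proteins. The P stalk on the large subunit, built on Rplp0, recruits elongation factors. Cells make ribosomal proteins in matched amounts, and in mammals their mRNAs begin with a run of pyrimidines, the 5′ terminal oligopyrimidine tract, through which mTOR and Larp1 control their translation. Many processed pseudogenes resemble these mRNAs closely, so a probe can also read a near-identical copy, and single values carry that uncertainty.

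The starts of these genes were read from the RefSeq promoter table (GRCm38.p6). The search used 65 promoters of 55 members, each from 250 before to 50 after the annotated start, and the other 18 members were not searched. These 65 may not be every member promoter in the table, whereas the comparison used all its promoters. The 6 letters CTTTCC, an oligopyrimidine core, were searched on the sense strand from 10 bases before to 20 after the start. They stood in 9 of the 65 member promoters (13.8%), against 1.28% of all 32851 promoters in the table. Below are the 60 bases around the start (40 before, 20 after) of those 9 genes, which were chosen for holding these letters and do not stand for the other members, ordered from the highest to the lowest log2 ratio, with CTTTCC in capitals. Capitals also mark CCGGAA or its reverse complement, a core of ETS family sites, and AAGATGG or its reverse complement, a core of YY1 sites. Each window is 1 annotated start of its gene.
Rpl13a (chr7:45128726-45128785, minus strand): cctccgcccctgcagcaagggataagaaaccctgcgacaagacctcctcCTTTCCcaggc
Rpl18 (chr7:45718031-45718090, plus strand): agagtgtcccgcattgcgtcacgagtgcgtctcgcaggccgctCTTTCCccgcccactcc
Rpl35 (chr2:39005112-39005171, minus strand): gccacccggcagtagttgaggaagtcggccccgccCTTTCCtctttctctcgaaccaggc
Rps10 (chr17:27635225-27635284, minus strand): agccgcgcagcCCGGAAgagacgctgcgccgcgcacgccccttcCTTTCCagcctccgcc
Rpl15 (chr14:18270967-18271026, minus strand): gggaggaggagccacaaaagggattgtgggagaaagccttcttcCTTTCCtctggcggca
Rps27 (chr3:90213629-90213688, minus strand): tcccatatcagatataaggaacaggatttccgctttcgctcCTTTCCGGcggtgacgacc
Rpl38 (chr11:114668540-114668599, plus strand): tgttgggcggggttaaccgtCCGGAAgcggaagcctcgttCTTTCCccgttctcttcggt
Rpl28 (chr7:4792925-4792984, plus strand): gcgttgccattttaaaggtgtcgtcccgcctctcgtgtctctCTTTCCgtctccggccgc
Rpl35a (chr16:33056442-33056501, plus strand): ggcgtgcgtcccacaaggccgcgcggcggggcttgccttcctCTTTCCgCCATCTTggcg

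Over that whole window and both strands, CCGGAA stood in 32 of the 65 member promoters (49.2%), against 14.9% of all promoters. AAGATGG stood in 11 (16.9%), against 6.34%. In 1 member promoter CCGGAA overlapped CTTTCC, and in 1 it overlapped AAGATGG. The median log2 ratio (mutant over wild type) was 0.21 in the 9 genes with CTTTCC and 0.21 in the other 46. It was 0.21 in the 31 genes with CCGGAA and 0.25 in the 24 without, and the ranges, from -0.03 to 0.42 and from -0.07 to 0.59, overlapped. For AAGATGG it was 0.19 in 9 genes and 0.21 in the other 46. A match describes letters in a window and is not a binding site.

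The question of the arrays was which transcripts differ between mutant and wild type kidney. As a group, ribosomal protein transcripts lay slightly higher in the RNA labelled mutant: their median log2 ratio was 0.21, or 1.16-fold, with 0.20 on replicate 1 and 0.22 on replicate 2, against a median of 0.0066 over all genes tested. The mean ratio was above 0 for 66 of 73 members and for 51.7% of all genes. On both arrays the ratio was above 0 for 57 members (78.1%), against 31.9% of all genes, and below 0 for 1 member, Rpl24, against 28.9%. The other 15 members had opposite signs on the 2 arrays. Among the 9180 genes of log2 intensity 8 or more, the ratio was above 0 on both arrays for 3350 and below 0 for 3038. The spread within the group was narrow: the quartiles of the members were 0.13 and 0.30, and the range was from -0.07 to 0.59.

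Only 2 members, among them Rps15, passed limma's test at an adjusted p under 0.05, both higher (2.74% of members against 3.79% of all genes), and 0 were lower (against 1.21%). By this call the members did not stand above the background. With the scanner's own p-value under 0.01 on both arrays, 2 members were higher (against 2.51%) and 0 lower (against 0.926%). At an unadjusted p under 0.05 in limma, 26 members were higher (35.6%, against 10.1%) and 0 lower (against 6.30%). Of the 9180 genes of log2 intensity 8 or more, 517 were called higher and 1186 were higher at an unadjusted p under 0.05. The count of calls depends on how limma estimates a gene's spread. With a robust prior that follows spot brightness it called 29 members higher, 16 of the small subunit, 12 of the large and 1 of the P stalk (39.7%, against 8.38% of all genes), and 0 lower. Prior degrees of freedom were unlimited there for the median gene. For such genes the p-values rest on the spread of equally bright spots and not on a gene's own 2 values. Calls under that prior thus depend on brightness, and most genes behind the 8.38% were dimmer than the members. The share among equally bright genes was not computed. Other settings called between 0 and 3 members higher. There were 0 with a smaller normexp offset of 16 (against 1.65% of all genes) or median centring (against 1.28%), and 0 with the scanner's log ratio or the value table, where 0 of all genes were called. Without the filter on dim probes 1 member was called (against 3.21%), as with outlier spots kept (against 3.49%). There were 2 with saturated spots left out (against 3.78%) or with the mean over probes (against 4.05%). There were 3 with no background correction (against 4.76%), with scale normalization between arrays (against 4.73%), with both channels well above background (against 4.45%) and with the members at weight 0 in loess (against 3.91%).

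**Figure D1:**
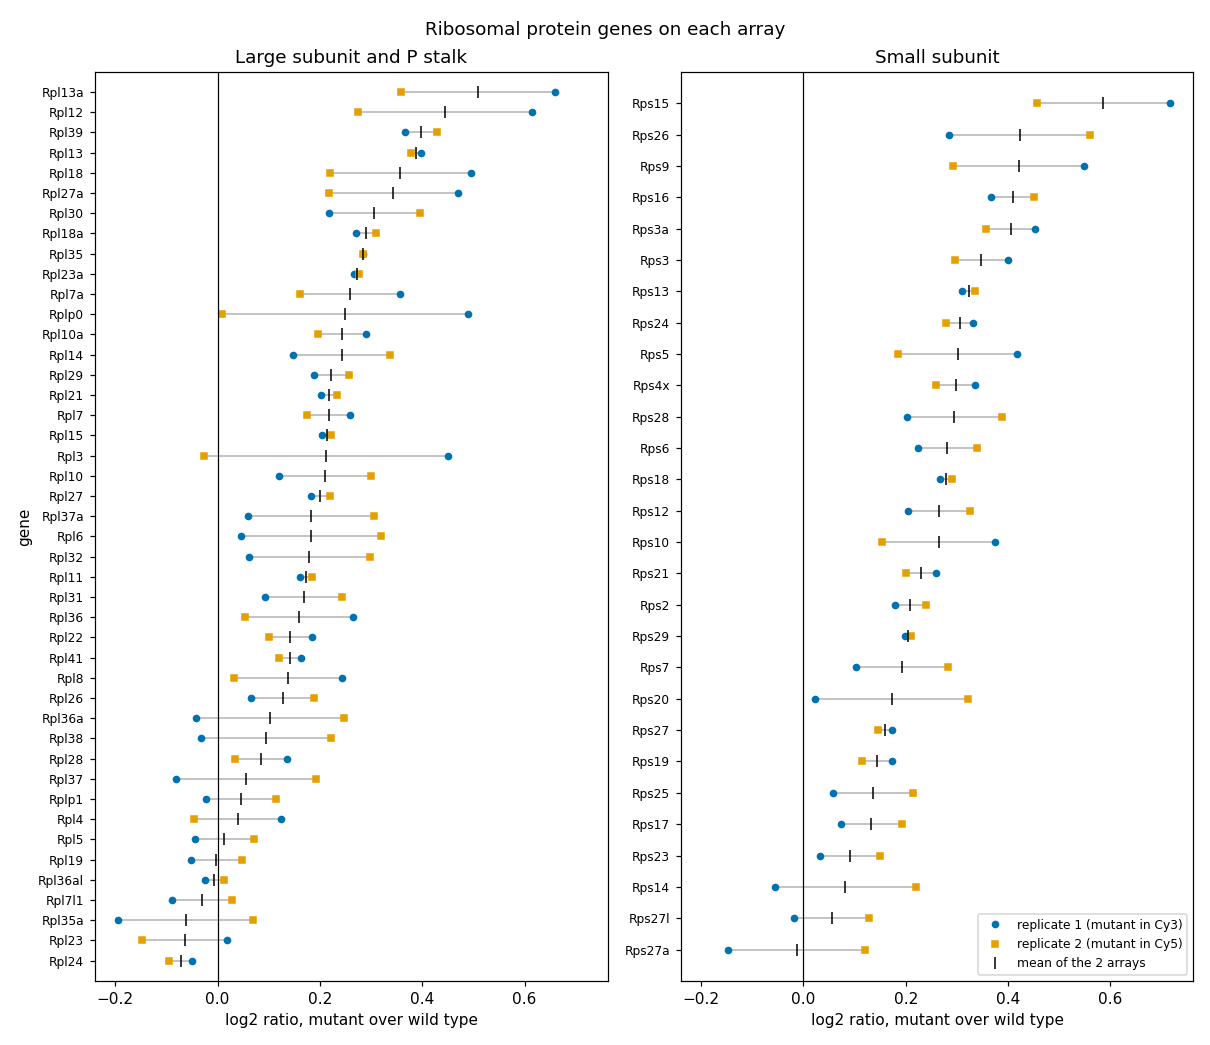
Log2 ratio of mutant over wild type (horizontal axis) for the ribosomal protein genes (vertical axis, 1 gene not drawn), with a circle for replicate 1, a square for replicate 2, a bar for their mean and a grey line joining the 2 arrays. Most genes have both points right of 0 and only Rpl24 has both left of it.

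The small subunit held both called genes, 2 of its 29 (against 3.79% of all genes). At an unadjusted p under 0.05 in limma 16 of the 29 were higher (against 10.1%). Rps15, a protein of the head of the small subunit near the decoding site, had a normalized intensity of 5989 in the mutant and 3643 in the wild type channel of replicate 1. On replicate 2 it had 5562 and 4056. The mutant channel was brighter on both arrays, and the log2 ratios were 0.72 and 0.46, with a mean of 0.59 ± 0.12 (limma's moderated SE over n = 2 arrays); limma's adjusted p was 0.0299.

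Rps26, of the same subunit, sits where the mRNA leaves the ribosome. It gave 3786 against 3109 on replicate 1 and 4301 against 2916 on replicate 2, a mean log2 ratio of 0.42 (adjusted p = 0.103 in limma). Rps9, an early assembly protein, gave 5036 against 3442 and 5443 against 4442, with a mean of 0.42 (adjusted p = 0.0997). In both genes the mutant channel was brighter on each array, but limma did not call them. Rps3a and Rps3, the latter at the mRNA entry, had mean log2 ratios of 0.41 and 0.35 and were not called. Rps6, the target of the S6 kinases, had log2 ratios of 0.22 and 0.34 on the 2 arrays, and Rps19, mutated in human Diamond-Blackfan anaemia, had 0.17 and 0.11. Both lay above 0 on each array and neither was called.

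Across the 29 small subunit genes the median log2 ratio was 0.27, with 0.22 and 0.28 on the 2 arrays. The mean was above 0 for 28 of them and the ratio was above 0 on both arrays for 26. All 29 lay above 0 on replicate 2, and 26 did on replicate 1. The exceptions on replicate 1 were Rps27a (-0.15 and 0.12), which is made as a fusion with ubiquitin, Rps14 (-0.06 and 0.22) and Rps27l (-0.02 and 0.13). Rps14 is the gene behind the anaemia of human 5q deletion.

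The large subunit without its stalk had 42 genes and a lower median, 0.18, with 0.17 and 0.22 on the 2 arrays. The mean was above 0 for 36, and the ratio was above 0 on both arrays for 30; limma called 0 (against 3.79% of all genes), with 10 higher at an unadjusted p under 0.05 (against 10.1%). The quartiles, 0.16 and 0.32 for the small and 0.10 and 0.25 for the large subunit, overlapped, and the difference was not tested. Rpl13a was highest. This protein also takes part in a complex that silences inflammatory mRNAs in human myeloid cells. Its intensity was 9269 in the mutant and 5867 in the wild type channel of replicate 1, and 8618 and 6727 on replicate 2. The mutant channel was brighter on both arrays, with log2 ratios of 0.66 and 0.36. The mean was 0.51 ± 0.12 (moderated SE, n = 2), but the adjusted p in limma was 0.0572. Rpl13a was called with no background correction, with scale normalization between arrays and with both channels well above background. The mean over probes, the members at weight 0 in loess and the robust prior that follows brightness also called it, and no other setting did.

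Rpl12, which anchors the P stalk, gave 19181 against 12530 on replicate 1 and 20294 against 16782 on replicate 2. Its mean log2 ratio was 0.44 (adjusted p = 0.102 in limma), and replicate 1 gave the larger difference. Rpl13 had 0.40 and 0.38 on the 2 arrays, and Rpl18 had 0.50 and 0.22; limma called neither. Rpl5 and Rpl11 carry 5S RNA into the large subunit and bind Mdm2 when assembly fails. Rpl11 had log2 ratios of 0.16 and 0.18, and Rpl5 had -0.04 and 0.07, so one was above 0 on both arrays and the other lay around 0.

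The low end belonged mostly to the large subunit. Rpl24, a protein of the bridge between the subunits, gave 4951 in the mutant and 5123 in the wild type channel of replicate 1, and 5569 and 5948 on replicate 2. It was dimmer in the mutant channel on both arrays, with a mean log2 ratio of -0.07 ± 0.11 (moderated SE, n = 2). It was not distinguished from 0, since limma gave it an adjusted p of 0.799. Rpl23 (0.02 and -0.15 on the 2 arrays), Rpl35a (-0.19 and 0.07), Rpl7l1 (-0.09 and 0.03) and Rpl36al (-0.02 and 0.01) changed sign between arrays. For Rpl36al the sign of the mean also turned with the members at weight 0 in the loess curve.

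The P stalk was measured by Rplp0 and Rplp1. The member probe of Rplp0 had log2 ratios of 0.49 and 0.01, the widest gap between arrays among the members. A second Rplp0 probe, listed under the older name Arbp and so outside the rule, had 0.12 and 0.24. Rplp1 had -0.02 and 0.11, and its spot was saturated in 1 channel. None of these was called.

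**Figure D2:**
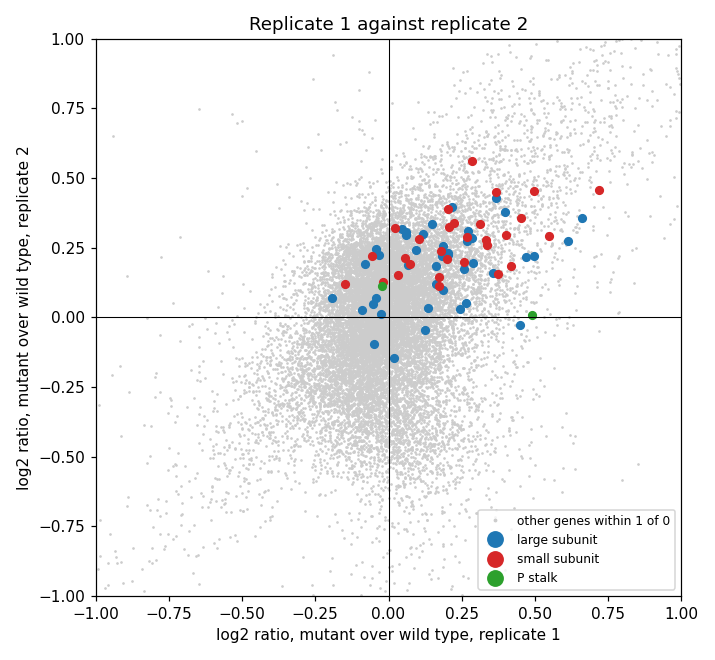
Log2 ratio of mutant over wild type on replicate 1 (horizontal axis) against replicate 2 (vertical axis), with one point for each gene, members coloured by subunit and other genes within 1 of 0 in grey. Most members sit in the upper right, between 0 and 0.72 on replicate 1 and up to 0.56 on replicate 2, while the grey cloud is centred on 0.

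The dye swap shows how the 2 arrays compare. Among members the median absolute difference between arrays was 0.12 on the log2 scale. It was 0.17 over all genes and 0.12 over all genes of log2 intensity 8 or more. Those genes were still dimmer than the members, with a median log2 intensity of 9.24 against 13.3. The difference was not computed for genes as bright as the members. Of the members 42 had the higher ratio on replicate 2 and 31 on replicate 1. The log2 ratios of the 2 arrays correlated across the 73 members with a Pearson r of 0.42 and a Spearman rho of 0.42, given as a description, since genes share their arrays and are not independent. Over all genes Pearson r was 0.59 and Spearman rho was 0.37, so the members were lower by the first measure and higher by the second. Over genes of log2 intensity 8 or more Pearson r was 0.79. The medians of 0.20 and 0.22 were as large with the mutant in Cy3 as with the mutant in Cy5.

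Some members have close relatives with their own genes. Rps27 had log2 ratios of 0.17 and 0.15, against -0.02 and 0.13 for Rps27l, a relative induced by p53. Rpl7 had 0.26 and 0.18, against -0.09 and 0.03 for Rpl7l1. Rpl36a, on the X chromosome, had -0.04 and 0.25, against -0.02 and 0.01 for its intronless relative Rpl36al. The values of the relatives did not overlap in the first and second pair and overlapped in the third. These are descriptions of 2 arrays, and no difference between relatives was tested. Rpl22 had 0.18 and 0.10, and its relative Rpl22l1, outside the rule under another name in the array design, had 0.16 and 0.36.

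Rps4x, on the X chromosome, had 0.33 and 0.26. The probe of its relative Rps4l, also outside the rule, was printed in 10 spots on each array, which gives the scatter of spots within an array. Its log2 ratio was 0.40 ± 0.04 (SD over 10 spots) on replicate 1 and 0.31 ± 0.08 on replicate 2. All 10 spots lay above 0 on both arrays, from 0.33 to 0.49 and from 0.12 to 0.38. Spots of one probe are technical repeats of the same RNA. Rps4l was not called (adjusted p = 0.138 in limma).

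Probes of further ribosomal proteins that the rule misses pointed mostly the same way. Rpsa, listed under Lamr1, had log2 ratios of 0.36 and 0.26, and Rpl34 had 0.29 and 0.37. Rack1, a scaffold on the small subunit, had 0.32 and 0.19. Fau, which encodes a small subunit protein fused to a ubiquitin-like part, had -0.15 and 0.21. Rpl39l, a relative of Rpl39 made mainly in testis, had -0.03 and -0.06. limma called none of these 5, and Rpl39l lay below 0 on both arrays.

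Several members are common reference genes for PCR, so their values are given together. Rpl13a had a mean log2 ratio of 0.51, Rps18 of 0.28 and Rpl19 of -0.0028. Rps18 was even between arrays (0.27 and 0.29), although a second, dim probe had -0.04 and -0.22. Rpl19 had -0.05 and 0.05, but its spot was saturated in 1 channel and its intensities of 60179 to 64810 lay near the top of the scale. Rplp0, above, had 0.25 by its member probe. Of these Rps18, Rpl13a and Rplp0 were above 0 on both arrays. In the main fit limma called none, while the robust prior that follows brightness called each of these except Rpl19.

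Spot brightness was examined because ribosomal protein spots are among the brightest. Their median log2 intensity was 13.3, against 8.0 for all genes, and they made up 18.6% of the 156 genes at a log2 intensity of 14 or more. In that range the median log2 ratio was 0.18 for the 29 members and -0.02 for the other genes. Between 12 and 14 it was 0.22 for 33 members and -0.03 for the other genes. The members' medians were higher than those of equally bright genes in both ranges. Among the members the log2 ratio did not follow brightness (Pearson r of 0.05 and Spearman rho of -0.07, n = 73 genes, a description). With the members given no weight in the loess curve, so that they could not pull it, their median was 0.23.

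**Figure D3:**
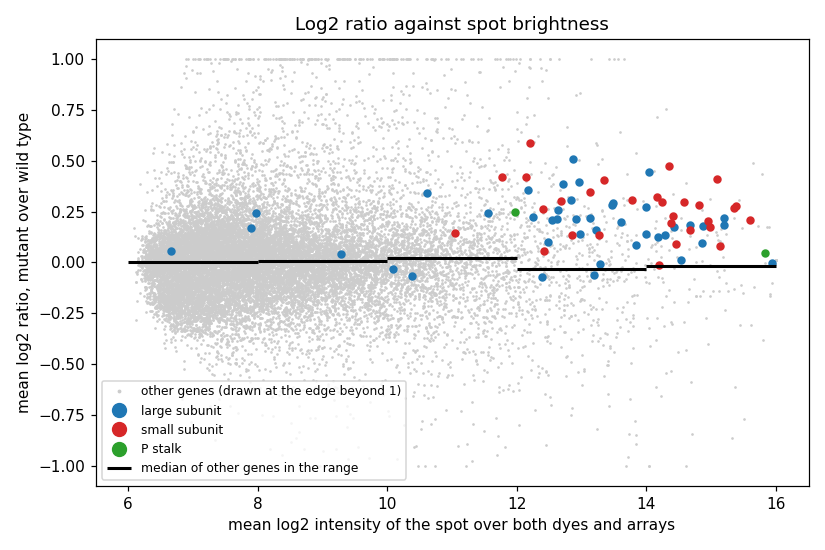
Mean log2 ratio of mutant over wild type (vertical axis) against the mean log2 intensity of the spot over both dyes and arrays (horizontal axis), with members coloured by subunit and other genes in grey; black lines mark the median of other genes in 5 ranges of brightness. Most members lie at a log2 intensity above 12 and above the black lines.

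Other groups of the translation machinery had medians nearer to 0. Of 74 genes for mitochondrial ribosomal proteins 0 were called, with 4 higher and 0 lower at an unadjusted p under 0.05 in limma, against 10.1% and 6.30% of all genes. Their median log2 ratio was 0.016, with 0.017 and 0.0028 on the 2 arrays, and it ran from -0.0027 to 0.032 over the ways of processing. The largest value was that of Mrpl33 (0.43 and 0.44 on the 2 arrays, not called). The median of this set lay near that of all genes.

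Of 52 ribosome biogenesis genes 0 were called. At an unadjusted p under 0.05 in limma 2 were higher and 3 lower, against 10.1% and 6.30% of all genes. The median log2 ratio of the set was 0.018, from -0.035 to 0.033 over the ways of processing. Nop58, a core protein of the complexes that methylate ribosomal RNA, had -0.60 and -0.27 on the 2 arrays and was not called. Of 11 elongation genes 0 were called, and 0 had an unadjusted p under 0.05, against the same 10.1% and 6.30% of all genes. The median of these 11 was 0.10, and Tpt1, whose mRNA also carries a terminal pyrimidine tract, had 0.24 and 0.10.

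Of 45 initiation genes, 2 rose and 0 fell, with a median of 0.05, a count near the 3.79% of all genes called higher. Eif4ebp1, the repressor of cap-dependent translation that mTOR inactivates, had log2 ratios of 0.77 and 0.77 (adjusted p = 0.00663 in limma). Pabpc1, the poly(A)-binding protein whose mRNA has a terminal pyrimidine tract, had 0.61 and 0.54 (adjusted p = 0.0229). Of 14 genes that control ribosomal protein mRNA, 1 fell, a single gene, against 1.21% of all genes called lower. This was Mtor, the kinase itself, with -0.56 and -0.67 (adjusted p = 0.0184 in limma). Larp1, the repressor that binds the tract, had -0.25 and -0.25 and was not called. These are transcript levels and carry no information on kinase activity. Of 12 proteasome core genes 0 were called, and the median was 0.06. At an unadjusted p under 0.05 in limma there were 0, against 10.1% of all genes higher and 6.30% lower.

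**Figure D4:**
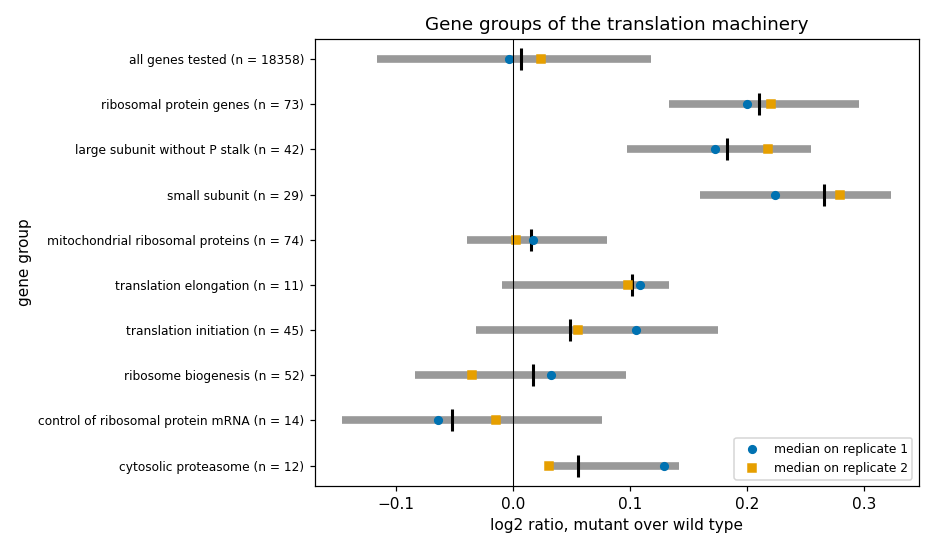
Median log2 ratio of mutant over wild type (horizontal axis) for gene groups of the translation machinery, the proteasome and all genes (vertical axis), with a circle for replicate 1, a square for replicate 2, a black bar for the median of gene means and a grey band from the lower to the upper quartile of the genes. The ribosomal protein groups lie between 0.17 and 0.28 on the 2 arrays, and the mitochondrial ribosomal proteins lie near 0.

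Markers of other cells moved in the same comparison, in which limma called 3.79% of all genes higher and 1.21% lower. Of 16 macrophage and dendritic cell markers 12 rose and 0 fell, with medians of 1.27 and 1.42 on the 2 arrays, led by Lyz2 (2.5) and H2-Ab1 (2.48). Of 15 lymphocyte markers 3 rose and 0 fell (medians of 0.25 and 0.47), and of 11 fibroblast and matrix genes 10 rose and 0 fell (1.14 and 1.42). Of 11 adipocyte markers 7 rose and 1 fell, with medians of 1.15 and 1.20. Of 16 proliferation genes 4 rose and 0 fell, among them Pcna (0.59) and Ccnb2 (0.69), with medians of 0.27 and 0.38. Of 5 erythroid markers 3 fell, with medians of -0.68 and -0.52. The part of these cells in the ribosomal protein values was not tested. In bulk kidney, a change in the share of a cell type and a change in RNA per cell cannot be told apart.

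For the tissue label, 11 of 12 kidney markers were well above background in at least 1 genotype on both arrays, with a median log2 intensity of 12.1. Of these 1 fell (against 1.21% of all genes), the proximal tubule phosphate transporter gene Slc34a1 (-0.61), and 0 rose (against 3.79%). At an unadjusted p under 0.05 in limma 3 were lower (against 6.30%) and 1 was higher (against 10.1%). The list median was -0.04, and -0.13 over 9 markers with saturated spots left out. The Glis2 probe had log2 ratios of 0.32 and 0.16 and an adjusted p of 0.328 in limma, so no fall of Glis2 was seen with the mutant label. Which stretch of the gene was altered is not given in the sources used here. The probe is therefore no check of the labels, and mutant means labelled mutant throughout. Between 94.6% and 97.4% of spots per channel were well above background.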

How the data were processed

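Each of 2 arrays compared 500 ng RNA of each genotype, amplified and labelled, with 750 ng of each cRNA hybridised for 17 hours, per the labels. Per the file headers, Agilent Feature Extraction 8.1.1.1 gave for every spot a mean signal and a local background intensity, neither normalized. Its log10 ratio of Cy5 over Cy3 followed spatial detrending and dye normalization, and its p-value concerns 1 array, per the file headers. The authors' deposited value table holds the same log10 ratios with the sign turned. Flags of 0 or 1 were read as given.

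With R 4.3.3 and limma 3.58.1, mean signals were corrected by normexp (offset 50) and loess within arrays, control spots at weight 0. Replicate 1 was turned to mutant over wild type. Control spots and 88 outlier-flagged spots were left out, and a probe was kept where 1 genotype was well above background on both arrays. The brightest probe under a gene's name stood for it. Rplp0 was tested under both its names, each with its own probe, and its member probe was the dimmer. The mean log2 ratio was tested against 0 by lmFit and eBayes over 18358 genes with Benjamini-Hochberg adjustment, 1 residual and 6.58 prior degrees of freedom. The loess step, the fit and the adjustment were tested on simulated data. The background correction, the filters and the choice of probe were not part of that simulation. Probes were named by accession, then symbol, with the RefSeq table of GRCm38.p6, but ribosomal protein probes kept their name in the array design. Of 75 member probes 72 matched by accession. The files name no build.

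The members and lists were chosen with earlier results of these data known. Named members were called genes, the 6 highest and 6 lowest, the stalk genes, relatives with a like symbol and common reference genes; lists gave up to 4 members by absolute mean. Other names (Rps6, Rps14, Rps19, Rpl5, Rpl11, Rpl22, those in the promoter lines, and Rpl39l, Rpl34 and Rpsa) were chosen after their values were seen. The number of arrays limits the precision. Some named genes are not reported here singly, although the counts and medians include them.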

Additional observations from a re-analysis of the deposited data

How the results depend on the processing

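No further paired analysis was run because the ratio on each array already pairs the genotypes, and the arrays were numbered in accession order only. The members' median log2 ratio of 0.21 stayed positive in every alternative run. It was 0.17 with median centring and 0.23 with the members at weight 0 in loess, an alternative chosen after seeing the data, and leaving out either array gave 0.20 to 0.22. The causes were not tested. The count of 2 members called higher became 0 with offset 16, median centring, the scanner's log ratio or the value table. At an unadjusted p under 0.05 in limma these gave 16, 12, 10 and 10 of 73 members higher, against 26 in the main fit. Over all 18358 genes they gave 1698, 1303, 1518 and 1518 higher, against 1860 in the main fit. The count of members called was 1 with no filter on dim probes or with outlier spots kept. It was 2 or 3 under the other alternatives of the fit, and 29 with the trended robust prior. With a scanner p under 0.01 on both arrays, also chosen after seeing the data, 2 members were higher (2.51% of all genes). No alternative called a member lower. With 1 array limma's count has no value. Values near 0 changed sign: Rpl19 was 0.0067 with offset 16 and 0.049 with the members at weight 0, where Rpl36al was 0.018 and Rps27a 0.020, and Rplp1 was -0.0037 with median centring. Of the 36 named members the other 32 kept their sign in every two-array alternative. Signal over background limits dim spots, such as Rpl37 and the second Rps18 probe.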
